A study of Mus musculus with 48 samples.

Results

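The genes described here are 8 genes that mark B cells, taken by symbol from a list: Cd79a, Cd79b, Blk, Pax5, Ms4a1, Cd22, Cr2 and Fcer2a. All 8 were found among the 34932 genes measured, and they were followed across 12 groups of 4 RNA-seq libraries. The groups were 3 sorted populations from mice bearing B16F10 tumors, a mouse melanoma line: CD4+ T cells, CD8+ T cells, and the remaining leukocytes, which were CD45+ but CD4- and CD8- (here CD45 cells). Each population came from the tumor, as tumor-infiltrating lymphocytes (TILs) for the T cells, and from the tumor-draining inguinal lymph nodes (TDLNs). Each was taken from WT and from Yap-cKO mice, all young adult C57BL/6J animals without a drug treatment named in the labels. Yap-cKO mice carried Yap-loxP/loxP, an LSL-EYFP reporter and the CD4-Cre transgene Tg(Cd4-cre)1Cwi. WT controls were littermates, whose own alleles are not specified in the sources used here. CD4-Cre acts in T lineage cells, so in the CD45 cells the genotype is that of the mouse and not a deletion directed to B cells. Libraries of a group carry numbers 1 to 4, and p-values measure the spread between these libraries, since not every one is stated to come from its own animal.

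B cells sense antigen through a membrane immunoglobulin that signals through the CD79A and CD79B chains, and Src family kinases such as BLK phosphorylate those chains. Coreceptors tune the signal: CR2 (CD21 and CD35) binds complement on antigen and enhances it, CD22 is a sialic acid binding inhibitory receptor, CD20 (Ms4a1) is a surface protein targeted by antibodies against B cell lymphoma, and CD23 (Fcer2a) is the low affinity IgE receptor. PAX5 is the transcription factor that holds cells in the B lineage. Lymph nodes are organised around B cell follicles, whereas B cells in a transplanted mouse melanoma are one population among many.

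Promoters are shown for 3 members whose group means, as for all 8, were highest in CD45 cells of the TDLNs and low in T cells. They place the only exact match to a searched motif beside promoters without such a match. RefSeq promoters (250 bases before to 50 after a transcript start, GRCm38.p6) were held for 5 of the 8 members, 7 promoters in all. They were searched on both strands for the 10-letter EBF1 motif, spelled TCCCNNGGGA, and the 8-letter octamer ATTTGCAT, both known from B cell promoters. The EBF1 letters occur in 297 of 32851 RefSeq promoters (0.904%) and the octamer in 570 (1.74%). Among the members, the search found 1 match, EBF1 in a Cd22 promoter from position -49 relative to the start of transcript Cd22-201, described further on. Cd22-202, with 39.6% of pooled Cd22 counts in WT CD45 cells of the TDLNs, starts upstream at chr7:30880065. No promoter was held or searched there. No match says only that these exact letters are not in this window. Sites for the same factors that are spelled otherwise were not searched for and may be present. The sequences run 5′ to 3′ on the gene's strand, with the match in capitals, for Cd22 at chr7:30878979-30879278 (minus strand), Cd79a at chr7:24897247-24897546 (plus strand) and Cr2 at chr1:195176670-195176969 (minus strand).
Cd22: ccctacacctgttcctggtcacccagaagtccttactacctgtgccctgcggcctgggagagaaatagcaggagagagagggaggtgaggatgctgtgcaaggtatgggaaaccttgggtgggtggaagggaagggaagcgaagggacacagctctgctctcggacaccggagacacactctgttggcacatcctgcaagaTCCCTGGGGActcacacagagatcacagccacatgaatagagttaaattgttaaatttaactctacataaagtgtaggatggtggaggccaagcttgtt
Cd79a: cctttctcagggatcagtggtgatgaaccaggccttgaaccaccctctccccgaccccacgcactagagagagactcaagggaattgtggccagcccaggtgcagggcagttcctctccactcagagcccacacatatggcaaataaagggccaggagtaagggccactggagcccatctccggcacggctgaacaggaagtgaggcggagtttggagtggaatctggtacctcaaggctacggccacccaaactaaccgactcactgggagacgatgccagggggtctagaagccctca
Cr2: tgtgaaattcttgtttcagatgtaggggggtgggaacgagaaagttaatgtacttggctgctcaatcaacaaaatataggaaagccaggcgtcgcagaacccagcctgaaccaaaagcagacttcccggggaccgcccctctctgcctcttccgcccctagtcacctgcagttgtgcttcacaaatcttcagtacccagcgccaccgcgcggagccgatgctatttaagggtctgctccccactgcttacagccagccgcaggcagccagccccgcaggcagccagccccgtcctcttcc

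The libraries held 12656510 to 24213892 gene counts, and a count of 3 corresponded to 0.124 to 0.237 CPM (counts scaled to the library total), taken as a floor that covers counting error only. In the 16 libraries of sorted CD45 cells Cd3e was at 1.10 to 11.7 CPM, against 767 to 1364 CPM in the T cells of the TDLNs. A list of 8 T cell genes summed to 365 to 526 CPM in CD45 cells of the TDLNs and 109 to 177 CPM in those of the tumor, against 5287 to 9105 CPM in T cells of the TDLNs. Yap1, the targeted gene, was at 15.6 to 33.0 CPM in WT TILs and 1.80 to 7.44 CPM in Yap-cKO TILs, while in T cells of the TDLNs the genotypes overlapped (1.19 to 2.56 against 1.14 to 5.31 CPM). In CD45 cells Yap1 was at 2.41 to 4.47 CPM in WT and 1.10 to 1.78 CPM in Yap-cKO tumor libraries, without overlap. In CD45 cells of the TDLNs the genotypes overlapped (1.36 to 2.39 against 1.17 to 2.23 CPM). WT and Yap-cKO tumor libraries also differed in RNA of melanoma genes, whose values are given beside the genotype comparisons. The part of that RNA in the Yap1 levels of the tumor libraries was not tested. Summed Y-linked genes (4 genes) were at 72.0 to 445 CPM in WT CD45 TDLN libraries 1 to 3 but at 8.15 CPM in WT library 4 and 5.99 to 11.2 CPM in Yap-cKO, with the same split in the tumor, so that mouse sex, as these genes show it, largely went with genotype.

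By group mean, each of the 8 B cell genes was highest in CD45 cells of the TDLNs, then in CD45 cells of the tumor, and low in sorted T cells. Cd79a, which encodes the signalling chain of the B cell receptor with the highest level here, ranged over 2464 to 3911 CPM in the 8 CD45 TDLN libraries and 61.0 to 583 CPM in the 8 CD45 tumor libraries. It ranged over 13.4 to 50.2 CPM in CD8+ and 8.67 to 32.1 CPM in CD4+ T cells of the TDLNs. In TILs it was at 3.60 to 9.09 CPM (CD8+) and 1.60 to 5.96 CPM (CD4+). No T cell library reached the lowest CD45 library of either tissue for Cd79a and Cd22, whereas for the other 6 members the highest T cell library of the TDLNs lay above Yap-cKO CD45 tumor library 1. The mean of a member in T cells of the TDLNs was 0.394% to 2.94% of its mean in CD45 cells of the same tissue and genotype. In the tumor that share was 0.212% to 19.5%, with the highest shares for Blk (19.5%), Cd22 (16.9%) and Cd79b (15.3%) in Yap-cKO CD8+ TILs. Pax5 reached at most 2.28 CPM in any T cell library, and was at 0 to 0.379 CPM in TILs.

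**Figure D1:**
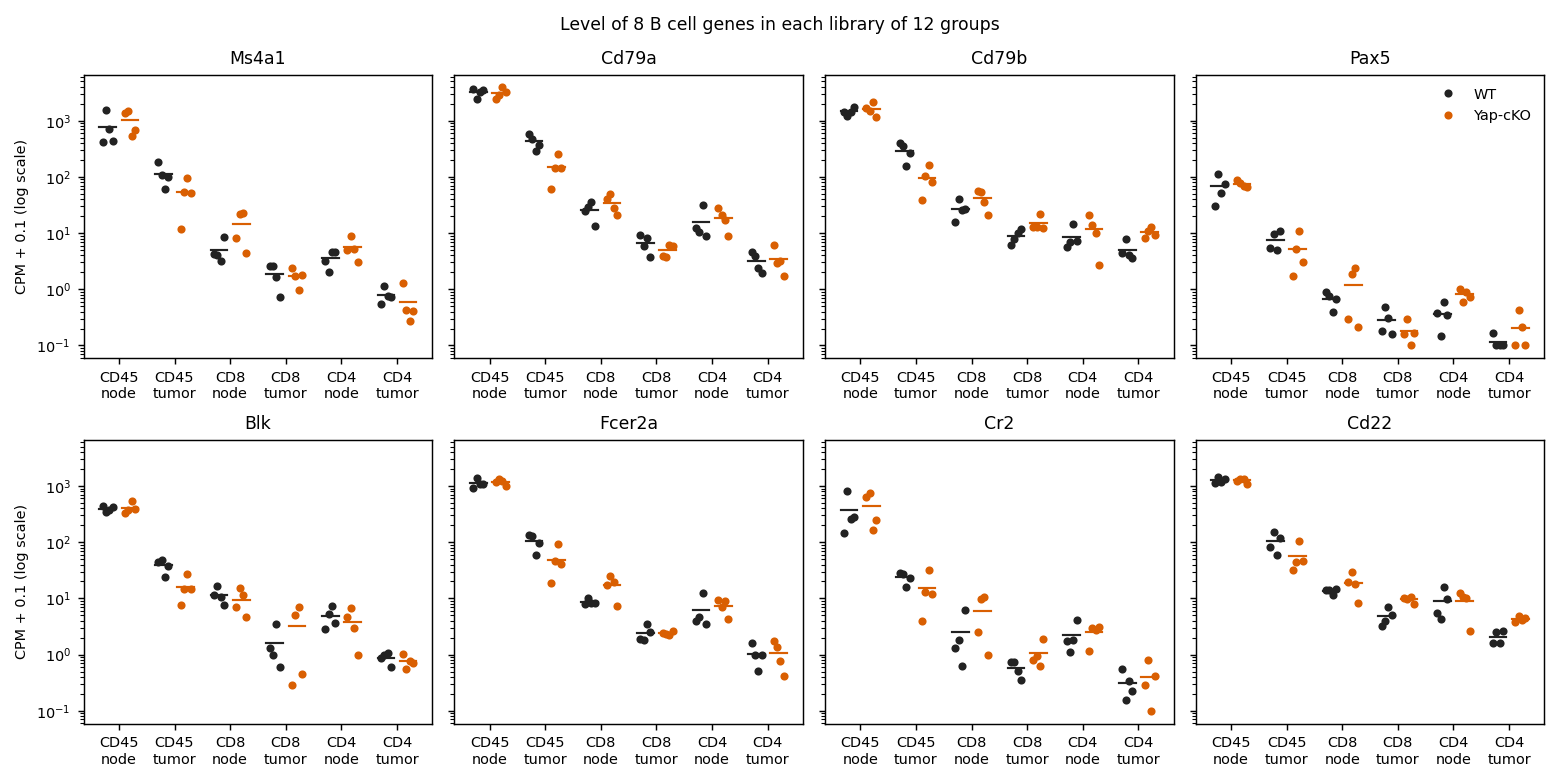
Each panel plots 1 gene, with each point a library at its CPM plus 0.1 on a log axis, by cell population and tissue, WT in black and Yap-cKO in orange, and bars at group means. In every panel the CD45 TDLN libraries are highest, and for Cd79a they lie at 2464 to 3911 CPM.

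Per transcript length (TPM), the members kept 1 order in all 4 CD45 groups: Cd79a, Cd79b, Fcer2a, Cd22, Ms4a1, Blk, Cr2 and Pax5. In WT CD45 cells of the TDLNs the level of Cd79a was 3363 ± 374 TPM (mean ± SD, n = 4) and that of Cd79b 1891 ± 209 TPM, without overlap between their libraries. Fcer2a was at 750 ± 184 TPM and Cd22 at 628 ± 118 TPM, and these overlapped. Ms4a1 (365 ± 277 TPM) overlapped with Cd22 before it and with Blk (243 ± 8.8 TPM) after it, and Blk overlapped with Cr2 (189 ± 156 TPM). Pax5, at 26.8 ± 12.7 TPM, was below every library's Cr2 level. In WT tumors the libraries of Cd79a (264 to 487 TPM) and Cd79b (172 to 426 TPM) overlapped.

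Within the CD45 cells of the TDLNs, Ms4a1 and Cr2 varied most between libraries in both genotypes, and Pax5 varied as widely in WT only. The coefficient of variation was 48.1% to 78.7% for Ms4a1 and Cr2 and 51.5% (WT) and 13.1% (Yap-cKO) for Pax5, against 10.2% to 25.3% for the other 5 genes. Cd79a (chr7:24897381-24902197, plus strand, GRCm38 as are all gene positions here) was at 3693, 2471, 3220 and 3589 CPM in the 4 WT libraries in order, and the 4 Yap-cKO libraries had 2464, 2907, 3911 and 3212 CPM. Blk (chr14:63372836-63417037, minus strand) was at 434, 349, 367 and 417 CPM in WT and at 333, 380, 542 and 389 CPM in Yap-cKO. For both genes the lowest libraries were WT 2 and Yap-cKO 1, and the genotypes overlapped. Cd79b (chr11:106311341-106314762, minus strand) gave 1454, 1234, 1454 and 1756 CPM in WT, with 1682, 1490, 2129 and 1149 CPM for Yap-cKO. Cd22 (chr7:30865402-30880342, minus strand) gave 1133, 1421, 1170 and 1321 CPM in WT, with 1234, 1349, 1359 and 1080 CPM for Yap-cKO. Fcer2a (chr8:3681737-3694175, minus strand) gave 926, 1370, 1101 and 1104 CPM in WT, with 1170, 1313, 1248 and 1006 CPM for Yap-cKO. None of these 3 genes separated the genotypes, and their highest library was less than 2 times their lowest.

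Ms4a1 (chr19:11249675-11266241, minus strand) was instead at 411, 1560, 725 and 431 CPM in WT and at 1365, 1519, 528 and 680 CPM in Yap-cKO. Cr2 (chr1:195136811-195176716, minus strand) was at 146, 801, 255 and 283 CPM in WT and at 636, 746, 162 and 253 CPM in Yap-cKO. The same 3 libraries, WT 2 and Yap-cKO 1 and 2, were the highest for both genes. Pax5 (chr4:44524757-44710487, minus strand) was at 30.1, 111, 52.7 and 75.6 CPM in WT and at 87.5, 77.9, 67.7 and 66.7 CPM in Yap-cKO, again highest in those 3 libraries. Those libraries also had the lowest GC content, 49.8% to 50.1% as the count-weighted mean over transcripts, against 51.1% to 52.1% in the other 5. Ms4a1 and Cr2 have the lowest GC of the members (41.2% and 42.1%, against 51.4% to 55.4% for the others and a median of 49.8% over expressed genes). Ms4a1 was at 1365 to 1560 CPM in the 3 libraries and 411 to 725 CPM in the others, and Cr2 at 636 to 801 against 146 to 283 CPM. Cd79a, at 54.9% GC, went the other way (2464 to 2907 against 3212 to 3911 CPM), and Cd22 did not separate them. Pax5 has the highest GC of the members, 55.4%, and was nonetheless highest in the 3 libraries of low GC. Whether base composition sets these levels was not tested. With library GC as a covariate, and without the 3 libraries, both added after the data were seen, the number of members called was the same in each CD45 comparison that uses TDLN libraries.

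**Figure D2:**
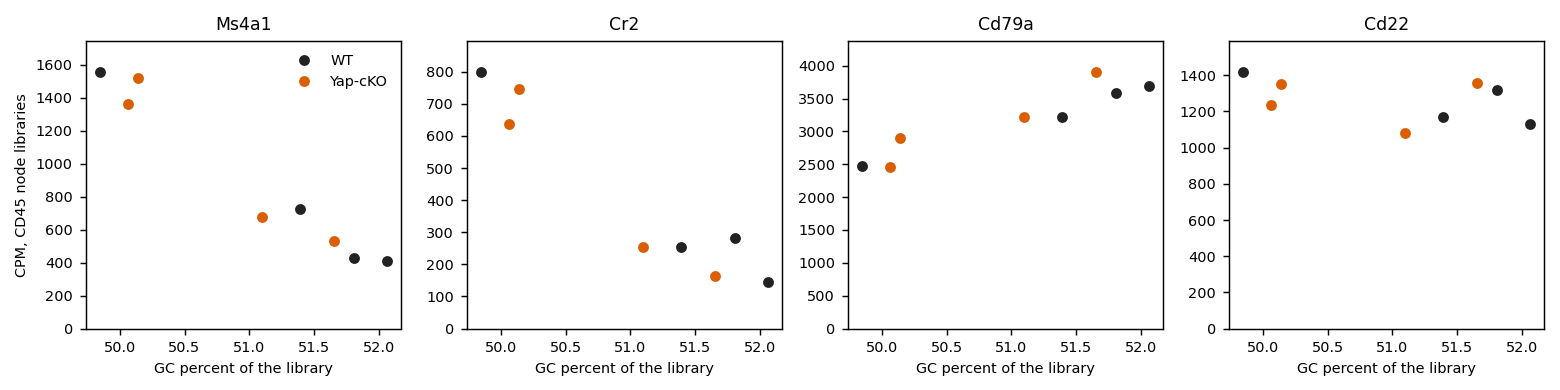
CPM of Ms4a1, Cr2, Cd79a and Cd22 (vertical axes, from 0) against the GC percent of each of the 8 CD45 TDLN libraries (horizontal axes), WT in black and Yap-cKO in orange. The 3 libraries at 49.8% to 50.1% GC have the highest Ms4a1 and Cr2 and the lowest Cd79a, and hold both genotypes.

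The comparison of tumor with TDLN asked how much B cell RNA the leukocytes outside the T cell gates held in each place. All 8 members fell in the tumor, in both genotypes, with no overlap between the 4 tumor and 4 TDLN libraries of any member (edgeR quasi-likelihood test, where a call needed a log2 change of more than 1 in size and a Benjamini-Hochberg p, adjusted over all genes, below 0.05). Of all genes tested, 18% were called lower in WT and 18.5% in Yap-cKO, and 25.8% and 32% were lower without overlap. The median log2 fold change of the members was -3.13 in WT and -4.24 in Yap-cKO, against -0.08 and -0.09 over all genes tested. Markers of some other cell types rose with this step, where 21.9% of all genes were called higher in WT and 21.8% in Yap-cKO. Of macrophage and monocyte genes, 8 of 8 were called higher in each genotype (median log2 fold change 5.52 in WT and 7.14 in Yap-cKO). Their summed levels were 71.1 to 701 CPM in the TDLNs and 4091 to 6116 CPM in the tumor. Dendritic cell genes (7 of 7 in WT, 6 of 7 in Yap-cKO), neutrophil genes (4 of 4 in each) and melanoma genes (6 of 6 in each) were called higher too. The sum of the T cell genes went the other way, from 365 to 526 CPM in the TDLNs to 109 to 177 CPM in the tumor. Its single genes did not all do so. Mean Cd3e went from 8.93 to 1.68 CPM in WT and from 4.26 to 2.10 CPM in Yap-cKO. Mean Cd4 went from 11.8 to 21.6 CPM and from 9.72 to 20.0 CPM, and mean Cd8a from 6.08 to 7.60 CPM and from 4.79 to 6.79 CPM. These genes made up a small part of the sum. The part of this change of mixture in the values of the members was not tested. In bulk RNA, fewer B cells and less of each RNA per cell cannot be told apart.

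Among the receptor genes, Cd79a in the tumor was at 583, 468, 292 and 367 CPM in the 4 WT libraries in order, and the 4 Yap-cKO libraries had 61.0, 144, 257 and 144 CPM. Its log2 fold change, tumor against TDLN, was -2.84 ± 0.31 (SE, adjusted p = 7.63e-05, edgeR) in WT and -4.19 ± 0.38 in Yap-cKO. Every tumor library lay below every TDLN library, and the Yap-cKO tumor libraries lay below the WT ones. Cd79b was at 394, 353, 157 and 267 CPM in WT tumors and at 39.0, 104, 160 and 82.4 CPM in Yap-cKO tumors. Its log2 fold change was -2.25 ± 0.31 in WT, the smallest of the 8 with all libraries in, and -3.88 ± 0.37 in Yap-cKO. Blk was at 43.9, 48.6, 23.9 and 38.0 CPM in WT tumors and at 7.38, 14.8, 26.9 and 14.6 CPM in Yap-cKO tumors, with log2 fold changes of -3.26 ± 0.27 and -4.51 ± 0.35. WT library 3 was the lowest WT tumor library for all 3 genes, and Yap-cKO library 3 was the highest of its group and overlapped with WT for Cd79b and Blk.

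Pax5 in the tumor was at 5.25, 9.64, 4.83 and 10.6 CPM in WT and at 1.65, 5.18, 10.8 and 2.93 CPM in Yap-cKO. Its log2 fold change against the TDLN was -3.00 ± 0.39 in WT and -3.68 ± 0.45 in Yap-cKO. These lay between the values of Cd79b and Blk in WT, and the Yap-cKO value was the smallest of the 8, with genotypes overlapping in the tumor. Its tumor values rest on 36 to 236 counts a library.

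Of the other surface genes, Cr2 had the largest log2 fold changes with all libraries in, -3.79 ± 0.45 in WT and -4.71 ± 0.64 in Yap-cKO, from tumor levels of 28.0, 27.5, 16.1 and 23.1 CPM in WT, with 3.81, 13.1, 31.3 and 11.8 CPM for Yap-cKO. Without the 3 TDLN libraries of low GC these were -3.23 and -3.74. Cd22 was at 81.5, 153, 58.7 and 121 CPM in WT tumors and at 32.0, 44.6, 103 and 45.6 CPM in Yap-cKO tumors, with log2 fold changes of -3.50 ± 0.31 and -4.29 ± 0.32. Fcer2a was at 135, 130, 58.4 and 98.2 CPM in WT tumors and at 18.6, 45.3, 90.9 and 40.5 CPM in Yap-cKO tumors, with log2 fold changes of -3.31 ± 0.29 and -4.42 ± 0.39. In all 3, Yap-cKO library 1 was the lowest of the 8 tumor libraries and Yap-cKO library 3 lay inside or above the WT range. Ms4a1 was at 182, 107, 61.6 and 100.1 CPM in WT tumors and at 11.6, 53.3, 97.3 and 50.8 CPM in Yap-cKO tumors, with log2 fold changes of -2.63 ± 0.44 and -4.07 ± 0.56. Without the 3 low GC libraries those of Ms4a1 were -2.19 and -3.44. As a share of the TDLN mean in CPM, the tumor mean was 6.38% (Cr2) to 19.9% (Cd79b) in WT and 3.34% (Cr2) to 6.85% (Pax5) in Yap-cKO.

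**Figure D3:**
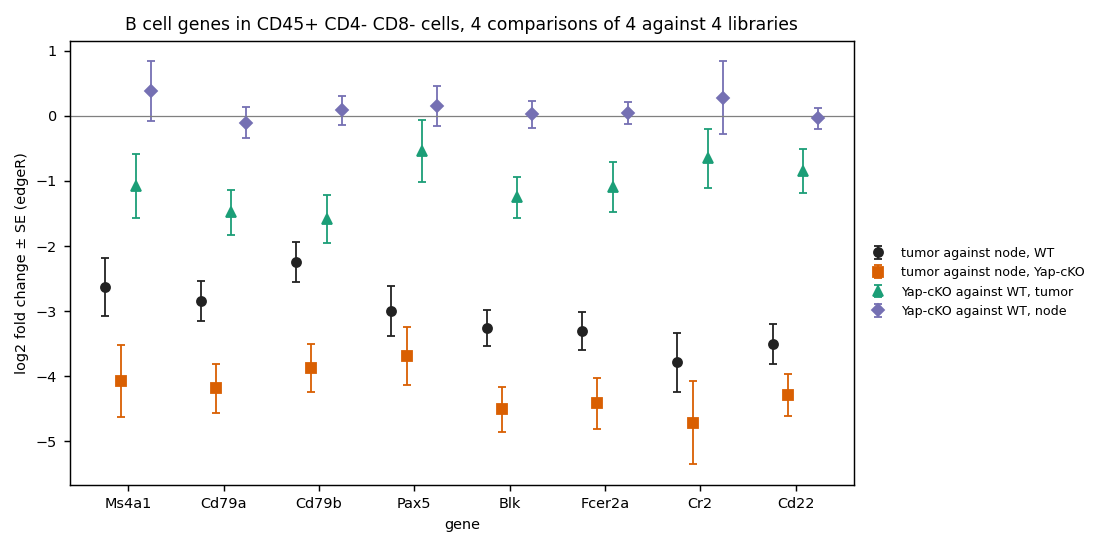
Log2 fold changes (edgeR, vertical axis, bars are SE) of the 8 genes in CD45 cells for 4 comparisons of 4 against 4 libraries: tumor against node (TDLN) in WT and in Yap-cKO, and Yap-cKO against WT in the tumor and in the node. Tumor against node lies between -2.25 and -4.71, and Yap-cKO against WT lies between -0.54 and -1.58 in the tumor and between -0.10 and 0.38 in the node.

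Whether the members fell by the same size was asked with ratios within a library, each gene's count over the sum of Cd79a and Cd79b, compared between tissues by exact permutation within genotype (two-sided, 4900 arrangements, smallest p 0.000408, adjusted over 6 genes). Blk was 7.81% to 9.42% of that sum in WT and 8.04% to 8.97% in Yap-cKO TDLN libraries. In the tumor it was 4.50% to 6.00% in WT and 6.01% to 7.40% in Yap-cKO, below every TDLN library. The log2 difference for Blk was -0.51 (exact permutation adjusted p = 0.00245), and that of Fcer2a was -0.56 (adjusted p = 0.00245, exact permutation). Cd22 differed by -0.57 (exact permutation adjusted p = 0.0245), a difference that was past the threshold with this reference but not with Cd79a alone (-0.42, adjusted p = 0.167). Between the receptor chains themselves, the geometric mean ratio of Cd79a to Cd79b was 2.19 in WT and 1.96 in Yap-cKO TDLNs and 1.50 and 1.57 in the tumors, a log2 difference of -0.43 (exact permutation p = 0.00367). For Ms4a1 (0.01), Pax5 (-0.05) and Cr2 (-0.77, exact permutation adjusted p = 0.162) no difference past the threshold was found, and the ratios of Ms4a1 and Cr2 spread widely over the TDLN libraries, from 7.98% to 42.1% and from 2.69% to 21.6%.

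Yap-cKO was next compared with WT in the CD45 cells. In the TDLNs, 0 of 8 members were called by edgeR, where 0.0596% of all genes were, and 0 of 8 had an unadjusted p under 0.05. Log2 fold changes ran from -0.10 (Cd79a) to 0.38 ± 0.46 (Ms4a1), all with an adjusted p of 0.998, and the libraries of the genotypes overlapped for every member, where 1.55% of all genes did not overlap. DESeq2 also called 0 of 8. The standard errors were 0.16 (Cd22) to 0.56 (Cr2), so that the precision differed between members.

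In the tumor, each of the 8 members had a lower fitted level in Yap-cKO, but 0 of 8 passed the test, where 0.925% of all genes were called lower. The log2 fold changes were -1.48 ± 0.35 for Cd79a (edgeR adjusted p = 0.0683), -1.58 ± 0.37 for Cd79b (edgeR adjusted p = 0.0683) and -1.25 ± 0.32 for Blk (edgeR adjusted p = 0.0825). Those of the other surface genes were -1.09 ± 0.39 (Fcer2a), -1.08 ± 0.49 (Ms4a1), -0.85 ± 0.34 (Cd22) and -0.65 ± 0.45 (Cr2), and that of Pax5 was -0.54 ± 0.47, with edgeR adjusted p-values of 0.189 to 0.561. Cd79a was the only member whose libraries did not overlap, where 9.88% of all genes were lower without overlap. The median of the members was -1.09 against 0.01 over all genes, and 5 of 8 had an unadjusted p under 0.05, as had 2425 of the 13628 genes tested. The count depended on the method: DESeq2 and edgeR without a count filter each called Cd79a, Cd79b and Blk lower, and edgeR with library GC as a covariate, an alternative added after the data were seen, called those 3 and Ms4a1. With a Y-linked gene covariate, or with any 1 library left out, 0 of 8 were called.

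Other measures moved with genotype in the same tumor libraries. The summed level of 6 melanoma genes was 801 to 1410 CPM in WT and 81.0 to 375 CPM in Yap-cKO CD45 tumor libraries. All 6 were lower without overlap and 4 of 6 were called lower, with a median log2 fold change of -2.22. Summed macrophage and monocyte markers (8 genes) overlapped, at 4440 to 6116 CPM in WT and 4091 to 5589 CPM in Yap-cKO, and T cell markers (8 genes) overlapped too, at 134 to 177 against 109 to 162 CPM. The part of these cell mixtures in the B cell gene levels was not tested. Mouse sex, as the Y-linked genes show it, cannot be told apart from genotype except through WT library 4. That library lay above all 4 Yap-cKO tumor libraries for Cd79a (367 CPM), Cd79b, Blk, Fcer2a, Cd22 and Ms4a1. Its Cr2 (23.1 CPM) and Pax5 (10.6 CPM) lay below Yap-cKO library 3 (31.3 and 10.8 CPM).

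The test of whether the genotypes differed in the step from TDLN to tumor, a tissue by genotype term over the 16 CD45 libraries, called 0 of 8 members and 0 of 14871 genes (0%) by edgeR. All 8 terms were negative, from -0.71 (Pax5) to -1.67 ± 0.46 (Cd79b, edgeR adjusted p = 0.275). At an unadjusted p under 0.05 there were 4 members and 1246 genes, and DESeq2 called 0 members and 119 genes. The larger fold changes of Yap-cKO in the tissue comparison are therefore not shown to differ from those of WT.

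Other genes of B cells were followed in lists of their receptor signalling, transcription factors, surface proteins, germinal centre and antibody production. These lists were chosen with earlier results of these data known, and no test of a list was made. From TDLN to tumor in CD45 cells, 13 of 19 receptor signalling genes were called lower in each genotype and 1 higher. Of all genes, 18% in WT and 18.5% in Yap-cKO were called lower, and 21.9% and 21.8% higher. The gene called higher was Fcgr2b (log2 fold change 1.65 in WT, 2.06 in Yap-cKO), the inhibitory Fc receptor that macrophages carry as well, named after its value was seen. The median of the list was -1.51 in WT and -1.64 in Yap-cKO. Syk, the kinase recruited to the phosphorylated receptor, changed by -1.41 in WT and -1.19 in Yap-cKO, whereas the log2 fold changes of Lyn (0.06 and 0.04) and Ptpn6 (-0.77 and -0.59), both used by myeloid cells too, were not called.

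The next 2 lists stand beside the same shares of all genes called lower, 18% in WT and 18.5% in Yap-cKO. Of 13 B cell transcription factor genes, 11 were called lower in each genotype, with medians of -2.33 and -2.96. They included Ets1 (-2.91 in WT and -3.22 in Yap-cKO), Spib (-2.72 and -3.11) and Klf2 (-1.81 and -1.83), while Irf8 (0.29 and 0.52), which dendritic cells and monocytes use as well, was not called. Of 19 other surface genes 14 were called lower in each genotype, with medians of -2.17 and -2.50. Fcmr, the IgM Fc receptor, changed by -3.27 and -4.59, Ccr7, a chemokine receptor for homing to nodes, by -2.71 and -2.46, and Cd83 by -1.54 and -1.18.

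Germinal centre genes moved in both directions: 5 of 8 tested were called lower and 2 higher in WT, and 4 of 7 lower and 2 higher in Yap-cKO. Over all genes, 18% (WT) and 18.5% (Yap-cKO) were called lower and 21.9% and 21.8% higher, so that 2 higher in a list of this size is near that share. Mef2b, a germinal centre transcription factor gene, changed by -5.13 in WT and -4.66 in Yap-cKO. S1pr2 (1.59 and 2.96) and Gcsam (2.90 and 3.89) rose, and Bcl6 changed by -1.46 in WT and was not called in Yap-cKO (-0.70). Of 18 plasma cell and immunoglobulin genes tested, 10 were called lower and 2 higher in WT, and 9 lower and 5 higher in Yap-cKO. Among constant regions, Ighm changed by -2.08 and -2.86, Ighd by -2.76 and -4.09, Igkc by -1.80 and -2.91 and Iglc2 by -2.01 and -3.83. The genes called higher in both genotypes were Igha (3.49 and 5.06), the IgA heavy chain, and Prdm1 (1.01 and 1.89), a regulator of plasma cells that other leukocytes express too, both named after their values were seen.

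Between genotypes in the CD45 cells of the tumor, 4 genes of these lists were called. Of all genes 0.925% were called lower, a share not set against the 4, as the lists were chosen with earlier results known. All 4 were lower in Yap-cKO and were named after their values were seen. They were Ly6d (log2 fold change -1.23, edgeR adjusted p = 0.0249), a B lineage surface gene, the lambda light chain genes Iglc2 (-1.53, edgeR adjusted p = 0.0369) and Iglc3 (-1.50, edgeR adjusted p = 0.0445), and Mzb1 (-1.34, edgeR adjusted p = 0.0185), a chaperone of antibody secretion. Fcmr (-1.36) and Ighd (-1.34) had values near that of Cd79a and were not called. Over all genes this comparison called 135, against 1 with a Y-linked gene covariate, and the 4 genes were not followed under that setting. In the TDLNs 0 genes of any of these lists were called between genotypes by edgeR, where 3 genes had an unadjusted p under 0.05 among surface and germinal centre genes and 2 among antibody genes.

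In sorted T cells, the members were tested where their counts allowed. Pax5 was left out of every comparison but that of genotypes in CD8+ T cells of the TDLNs, and Cr2 of that in CD4+ TILs. From TDLN to tumor, 7 of 7 members were called lower in WT CD8+ T cells (15.2% of all genes were) and 6 of 7 in Yap-cKO CD8+ T cells (5.01%). In CD4+ T cells 6 of 7 were called lower in WT (14.4%) and 5 of 7 in Yap-cKO (6.07%). Cd79a changed by -2.58 in WT and -2.62 in Yap-cKO CD4+ T cells and by -2.28 and -3.04 in CD8+ T cells. Cd79b changed less, by -1.92 and -1.69 in CD8+ T cells, and was not called in CD4+ T cells (-0.998 in WT and -0.36 in Yap-cKO). Blk (-1.75, edgeR adjusted p = 0.187) was not called in Yap-cKO CD8+ T cells, where its TILs were at 0.190, 4.91, 6.98 and 0.343 CPM, with libraries 2 and 3 more than 10 times the others. Cd22 was called in Yap-cKO CD8+ T cells (-1.15, edgeR adjusted p = 0.0379) but lost the call in 6 of 8 fits that left out 1 library, with values of -1.37 to -0.92, and was not called in Yap-cKO CD4+ T cells (-1.22).

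Between genotypes, 0 members were called in T cells of either tissue by edgeR, where 0.0462% (CD4+) and 0.0158% (CD8+) of all genes were called in the TDLNs and 8.02% and 12.2% in the TILs. Cd79b and Cd22 still lay higher in Yap-cKO TILs without overlap, in both T cell populations, where 3.72% (CD4+) and 6.68% (CD8+) of all genes did so. In CD4+ TILs Cd79b was at 4.36, 7.76, 3.97 and 3.57 CPM in WT and at 8.19, 10.96, 12.8 and 9.12 CPM in Yap-cKO (log2 fold change 1.25 ± 0.40, edgeR adjusted p = 0.0843). Cd22 was at 1.54, 2.38, 1.54 and 2.50 CPM in WT and at 3.72, 4.81, 3.95 and 4.44 CPM in Yap-cKO CD4+ TILs (1.24 ± 0.38, edgeR adjusted p = 0.0741). In CD8+ TILs Cd79b was at 5.93, 7.85, 9.81 and 11.7 CPM in WT and at 12.8, 12.5, 21.3 and 12.4 CPM in Yap-cKO (0.77 ± 0.33, edgeR adjusted p = 0.132). Cd79b thus separated the genotypes in both populations, at levels below every CD45 library of either tissue. Cd22 was at 3.08, 3.79, 6.86 and 4.99 CPM in WT and at 9.99, 9.70, 10.5 and 7.89 CPM in Yap-cKO CD8+ TILs (1.06 ± 0.35, edgeR adjusted p = 0.0667). DESeq2 called both genes in CD4+ TILs and Cd22 in CD8+ TILs. Over all genes it called 2128 in CD4+ and 2572 in CD8+ TILs, against 1139 and 1719 by edgeR. The median over all genes tested was 0.14 in CD4+ and 0.08 in CD8+ TILs. Cd79a did not separate the genotypes, with log2 fold changes of 0.29 in CD4+ and -0.42 in CD8+ TILs. In the same TIL libraries T cell markers (8 genes) summed to 1519 to 5588 CPM in WT and 5752 to 7330 CPM in Yap-cKO (CD4+), and to 1961 to 5640 against 5561 to 6938 CPM (CD8+). Melanoma genes (6 genes) summed to 5950 to 18232 against 172 to 2057 CPM (CD4+) and to 4376 to 15367 against 39.6 to 2743 CPM (CD8+). The part of these mixtures was not tested. Summed Y-linked genes (4 genes) were at 5.07 to 75.5 CPM in WT and 2.88 to 8.88 CPM in Yap-cKO CD4+ TILs. In CD8+ TILs they were at 4.24 to 137 against 4.54 to 10.4 CPM. With a Y-linked gene covariate edgeR called 2 genes in CD4+ and 1 in CD8+ TILs, against 1139 and 1719 without it, and 0 members. The part of mouse sex in these genotype differences was not tested.

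Whether the B cell genes stood in the same proportions in sorted T cells as in CD45 cells was asked with each gene's ratio to Cd79a (23 tests, an analysis added after the data were seen, exact permutation within genotype, two-sided). Relative to Cd79a, Cd79b was higher in CD4+ TILs than in CD45 cells of the tumor by 1.82 on the log2 scale (exact permutation adjusted p = 0.00156) and in CD8+ TILs by 1.64 (exact permutation adjusted p = 0.00536). In the TDLNs it was higher by 1.21 in CD8+ T cells (exact permutation adjusted p = 0.00156), with 0.20 in CD4+ T cells, not past the threshold. Blk was higher by 0.91 (exact permutation adjusted p = 0.0117) in CD4+ and 1.45 (exact permutation adjusted p = 0.00156) in CD8+ T cells of the TDLNs and by 1.31 in CD4+ TILs, with 1.21 in CD8+ TILs, not past the threshold. Cd22 was higher by 1.69 in CD4+ and 2.01 in CD8+ TILs (exact permutation adjusted p = 0.00156 in both), with 0.31 and 0.43 in the TDLNs, not past the threshold. In CD8+ TILs Fcer2a (0.62, exact permutation adjusted p = 0.0219) and Cr2 (0.80, exact permutation adjusted p = 0.0244, at a mean of 11.1 counts) were higher too. For Ms4a1 the differences were 0.03 to 0.10 in the 3 sets with enough counts (0.08 to 0.23 with a pseudocount of 5), not past the threshold, from ratios that spread widely between TDLN libraries.

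**Figure D4:**
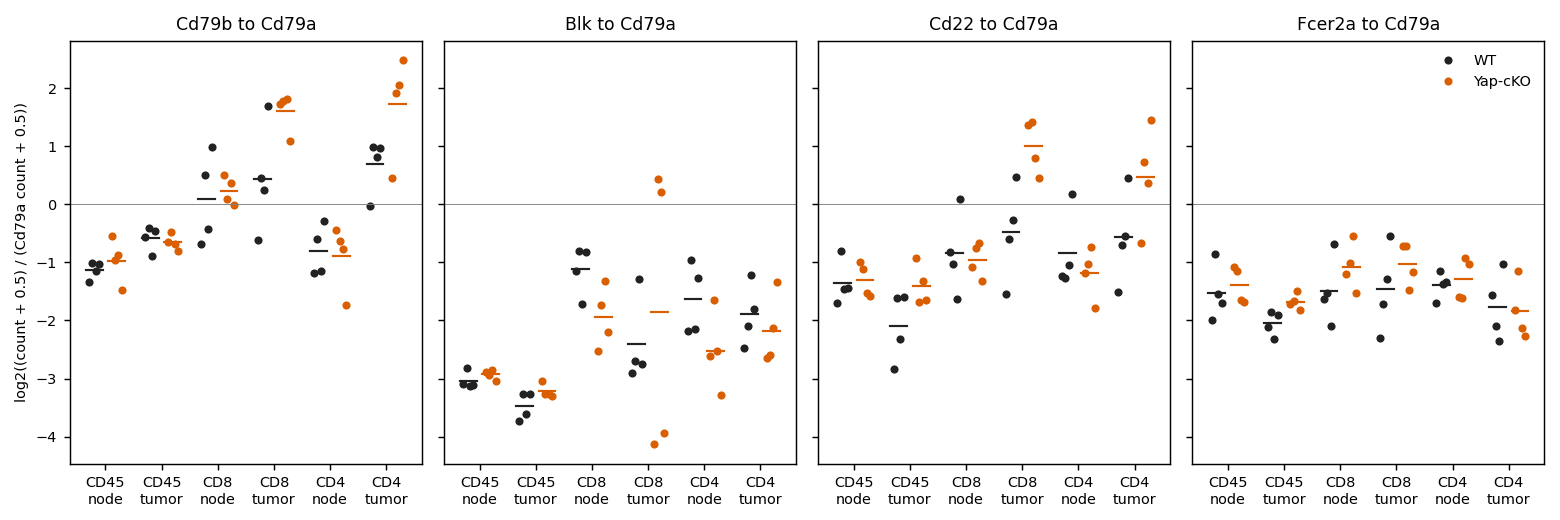
The log2 ratio of the counts of Cd79b, Blk, Cd22 and Fcer2a to those of Cd79a, each plus 0.5 (vertical axis), 1 point per library, by population and tissue (node is TDLN), WT in black and Yap-cKO in orange, with bars at group means. On average the TIL libraries sit above the CD45 tumor libraries by 1.64 to 2.01 for Cd79b and Cd22, and by 0.06 to 0.62 for Fcer2a.

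The Cd22 counts in T cells lay to a large part on another transcript than in CD45 cells. Cd22-201 starts at its own first exon (chr7:30878812-30879028, 217 bases) and has its own 3′ stretch (chr7:30865402-30865826, 425 bases), both absent from every other annotated Cd22 transcript, and its start carries the promoter and EBF1 match printed above. It took 6.43% ± 0.953 (SD, n = 4) of Cd22 counts in WT and 6.02% ± 0.919 in Yap-cKO CD45 cells of the TDLNs. In CD45 cells of the tumor it took 14.7% ± 10.2 in WT and 23.7% ± 11.8 in Yap-cKO, 12.96 percentage points above the TDLNs (exact permutation within genotype, two-sided, adjusted p = 0.00114 over 7 tests). In TILs the share was 82.1% ± 14.1 (WT CD4+), 51.7% ± 19.7 (Yap-cKO CD4+), 70.1% ± 8.69 (WT CD8+) and 56.0% ± 22.7 (Yap-cKO CD8+). In T cells of the TDLNs it was 31.7% to 42.3%. T cells were above CD45 cells of the same tissue by 28.2 to 47.7 percentage points (exact permutation adjusted p = 0.00114 for each of the 4 sets). Genotypes in CD45 cells differed by -0.41 percentage points in the TDLNs (exact permutation p = 0.486) and by 8.96 in the tumor (exact permutation p = 0.286), where 4 against 4 libraries cannot go below 0.0286.

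**Figure D5:**
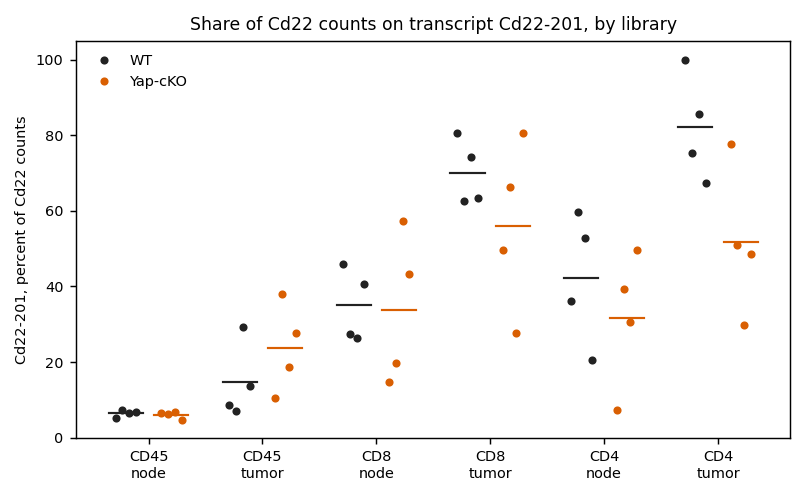
The percent of Cd22 counts assigned to transcript Cd22-201 (vertical axis) in each library, by population and tissue (node is TDLN), WT in black and Yap-cKO in orange, with bars at group means. CD45 node libraries lie together near 6%, and the WT CD4 tumor group has the highest mean, 82.1%.

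These shares are Salmon's assignments, and in TILs they rest on few counts. Without Cd22-201, Cd22 in CD45 cells changed from TDLN to tumor by -3.61 in WT and -4.58 in Yap-cKO, and between genotypes in the tumor by -1.03 (edgeR adjusted p = 0.211). The rest of Cd22 was at 0 to 0.812 CPM in WT and 0.835 to 2.77 CPM in Yap-cKO CD4+ TILs, a log2 fold change of 2.48 (edgeR adjusted p = 0.0849), and it differed by 1.65 in CD8+ TILs (edgeR adjusted p = 0.0772). Ms4a1 had a second transcript of this kind, the retained intron form Ms4a1-202, with 2.23% to 3.78% of pooled Ms4a1 counts in CD45 groups and 31.0% to 61.5% in TIL groups. In CD45 cells Cd79a-201 took 100% of Cd79a counts, Blk-201, Fcer2a-201 and Ms4a1-201 each over 95% of theirs, and Cd79b-202 took 83.5% to 84.7% of Cd79b counts. Genes on the opposite strand overlap Ms4a1, Cd22 and Pax5, and since use of strand in counting is not given in the sources used here, part of their counts is uncertain.

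The genes whose pattern was most like that of the members were found by Pearson's r over the 12 group means of log2(CPM + 0.5), with the mean of the standardised members, among 12362 genes. They included Bank1 (r = 0.995), Fcmr (0.993), Igkv17-121, Ighd, Fcrla and Iglc2 (each 0.990), then Ly6d, Igkv6-17 and B3gnt7 (each 0.989). There were 191 genes above 0.95. The members themselves had r from 0.987 (Cd79b) to 0.998 (Fcer2a), but each is part of that mean, so these values cannot be set beside those of other genes. The 12 points share their libraries and the step between CD45 cells and T cells, and r describes that pattern alone.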

How the data were processed

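RNA-seq libraries from 3 sorted populations, 2 tissues and 2 genotypes (12 groups of 4) were analysed, grouped by the labels. Per the labels, the authors amplified RNA with SMART-Seq v4 and processed paired-end reads with FastQC, Trimmomatic and Salmon 0.9.1 against mm10. The deposited files hold estimated counts and TPM per transcript. Of 112092 transcripts, 111787 were matched to GENCODE M21 genes, and the rest took 0.0488% to 0.18% of counts. Estimated counts were summed per gene and rounded (12656510 to 24213892 a library), and TPM was summed per gene. Each comparison was fitted with edgeR 4.0.16 (R 4.3.3) by quasi-likelihood with TMM scaling on genes reaching 10 counts in 4 or more libraries. p-values were adjusted by Benjamini-Hochberg over all genes, and a call needed an adjusted p below 0.05 with a log2 change of more than 1 in size. The study's own methods used tximport and DESeq2, and DESeq2 1.42.0 served as an alternative. Ratios (pseudocount 0.5) were compared by exact permutation. Scripts were tested on simulated data. CPM is the count scaled to the library's total gene counts. All members were named, with the 4 genes of each list highest in CD45 cells and the 10 genes most like the members, except some that are not reported here. Members and lists were chosen with earlier results of these data known. Other scalings, filters, covariates, a replicate block and each library left out were tried.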

Additional observations from a re-analysis of the deposited data

Results flagged for a closer look

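Among 94 sets of 4 libraries (1 member in 1 group), 6 held a library farther from the others than Dixon's 95% critical value for 4 samples, and chance alone gives about 1 in 20. Cd79a in WT CD4+ T cells of the TDLNs was at 32.1 CPM in library 3 against 8.67 to 12.5 CPM in the others, and Fcer2a was at 12.3 CPM in the same library against 3.39 to 4.58 CPM. Cd22 in WT CD8+ T cells of the TDLNs was lower in library 3, at 11.4 CPM against 14.1 to 14.4 CPM, and Fcer2a was higher in library 2, at 10.03 CPM against 7.98 to 8.31 CPM. Cd79b in Yap-cKO CD8+ TILs was at 21.3 CPM in library 3 against 12.4 to 12.8 CPM. Ms4a1 in Yap-cKO CD4+ TILs was at 1.18 CPM in library 1 against 0.169 to 0.320 CPM. None of the 6 was in a CD45 group.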

How the results depend on the processing

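In CD45 cells the tissue comparisons called 8 of 8 members lower in each genotype under every alternative run, and the TDLN genotype comparison called 0 of 8. Over all genes, in either direction, the tissue fits called 4646 to 6870 in WT and 4798 to 7675 in Yap-cKO. In tumor CD45 cells, 0 members were called between genotypes, against 3 with DESeq2, 3 without a count filter and 4 with library GC as a covariate. Over all genes that comparison called 135, against 527, 250 and 365 under those 3 settings, 80 without TMM, and 1 with the Y-linked covariate and with the replicate block. In CD4+ TILs, 0 became 2 with DESeq2, and 0 to 1 with 1 library left out (1 without Yap-cKO library 3). Over all genes 1139 were called there, against 2128 with DESeq2 and 3236 without that library. In CD8+ TILs, 0 became 1 with DESeq2 and 1 with average transcript length offsets, and 0 to 1 with 1 library left out (1 without WT library 3). Over all genes 1719 were called there, against 2572 with DESeq2, 1570 with length offsets and 2582 without that library. The TDLN genotype fold changes, of which 0 passed the test, rose to 1.50 for Ms4a1 and 1.08 for Cr2 with the Y-linked covariate and turned sign for Blk (-0.10) and Cd79b (-0.16) with the Y-linked covariate, for Cd79a (0.095), Cr2 (-0.31), Fcer2a (-0.0044) and Ms4a1 (-0.031) with the GC covariate, for Cr2 (-0.14) without the 3 low GC libraries, and for Cd22 (0.012) and Pax5 (-0.032) with length offsets. With 1 library left out they ranged from -0.13 to 0.13 (Blk), -0.073 to 0.0095 (Cd22), -0.24 to 0.020 (Cd79a), -0.071 to 0.20 (Cd79b), -0.071 to 0.92 (Cr2), -0.0039 to 0.11 (Fcer2a), 0.13 to 0.90 (Ms4a1) and -0.067 to 0.46 (Pax5). Cd79b from TDLN to tumor in Yap-cKO CD4+ T cells ranged from -0.70 to 0.20, above 0 without TDLN library 1. The Cd22 ratio between tissues was no longer past the threshold with Cd79a alone (-0.42), with TPM (-0.44) and with the replicate block (-0.57), and ranged from -0.69 to -0.41 with 1 library left out, where the call was lost without WT tumor libraries 1 or 3 or Yap-cKO TDLN libraries 1 or 2 (exact permutation adjusted p up to 0.0653). The Pax5 ratio turned to 0.10 with Cd79a alone, 0.41 with TPM and 0.014 with a pseudocount of 5, and ranged from -0.23 to 0.15. The Ms4a1 ratio ranged from -0.14 to 0.20 and the Cr2 ratio from -0.97 (past the threshold, without Yap-cKO TDLN library 3) to -0.54. With a pseudocount of 5 the ratio of Blk to Cd79a in CD8+ TILs was 1.57, past the threshold, and that of Pax5 in CD8+ T cells of the TDLNs turned to 0.58. The causes were not tested. Without TMM, the median of all genes in the CD45 tissue comparisons was -0.21 in WT and -0.31 in Yap-cKO, and the 8 members stayed far below it. Libraries with the same replicate number were not taken as pairs, since the labels do not say what the number marks: the mean correlation of their deviations was -0.29 to 0.27 over the 12 comparisons, with every pair above 0.1 in none. The replicate block kept 8 of 8 calls in the CD45 tissue comparisons and 0 in the genotype ones. Over all genes, in either direction, it called 5347 (WT) and 5401 (Yap-cKO) in those tissue comparisons. Between tissues in CD4+ T cells it called 6 of 7 members (WT) and 4 of 7 (Yap-cKO), beside 5476 and 1726 genes over all. In CD8+ T cells it called 7 of 7 and 4 of 7, beside 5019 and 1698 genes over all. The tissue by genotype term called 0 of 8 with the block. Depth limits Pax5 in T cells and Cr2, Ms4a1 and Blk in TILs, where single libraries lie at or near the floor of 3 counts.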
